A study of Mus musculus with 4 samples.

Results

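The BCL2 family genes described here are 10 genes of the mitochondrial route to apoptosis, followed in CD4+CD8+ double-positive (DP) thymocytes of mice with and without a Cre that targets the deubiquitinase gene Usp8. They were taken as the non-control array probes whose design name is Bcl2, Bcl2l1, Mcl1, Bcl2l11, Bmf, Bbc3, Pmaip1, Bid, Bax or Bak1, which gave 10 of the 28095 design names and 19 of the 41174 probes on the array. All 10 genes had at least 1 probe, and 6 had several. Of the 19 probes, 18 were well above background on all 4 arrays.

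USP8ff_CD4Cre mice had loxP-flanked Usp8 alleles and Cre driven by Cd4 regulatory sequences, and the controls were USP8ff, with the same flanked alleles and no Cre. All were untreated, sex-matched littermates of 6 to 12 weeks. DP thymocytes were sorted, cells of 2 mice were pooled per sample, and each genotype had 2 samples, from 8 mice in all. No group carried Cre alone, so Cre and the deletion cannot be told apart. RNA was hybridised to 1-colour Agilent arrays, and every level below is a log2 spot intensity scaled to the array's own 75th percentile (0 on this scale).

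BCL2 proteins decide whether the outer mitochondrial membrane is breached. BCL2, BCL-XL (the product of Bcl2l1) and MCL1 hold death in check. The BH3-only proteins BIM (Bcl2l11), BMF, PUMA (Bbc3), NOXA (Pmaip1) and BID bind and neutralise them or activate the effectors BAX and BAK, which open the membrane. DP thymocytes are short-lived cells that depend on BCL-XL and MCL1, and BIM removes many of those whose receptor binds self-antigen strongly.

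Probes of 5 members, each with at least 1 frame free of stop codons, are shown. Members with several probes are read at separate places of the transcript, and the results below turn on whether those places gave the same difference. In Bcl2l11 the capitals mark adjacent glycine and aspartate codons in an open frame, the core of the BH3 motif. In Bak1 they mark tryptophan, glycine and arginine codons of the BH1 motif. The other 3 carry no capitals. The files give each position on mm9, and exon or UTR annotation was not given in the sources used here. The 60 bases of the Bcl2l11 probe lie over 11096 genomic bases (chr2:127972893-127983988, plus strand), so the probe crosses an exon junction. The others are unbroken on the minus strand, Bmf at chr2:118358312-118358371, Bcl2l1 at chr2:152655185-152655244, Bcl2 at chr1:108608970-108609029 and Bak1 at chr17:27158232-27158291.
Bmf: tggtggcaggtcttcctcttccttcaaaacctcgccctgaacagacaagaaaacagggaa
Bcl2l1: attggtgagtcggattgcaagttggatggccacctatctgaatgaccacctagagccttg
Bcl2: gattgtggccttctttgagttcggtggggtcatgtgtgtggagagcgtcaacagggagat
Bcl2l11: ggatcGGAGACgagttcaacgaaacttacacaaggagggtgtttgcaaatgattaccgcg
Bak1: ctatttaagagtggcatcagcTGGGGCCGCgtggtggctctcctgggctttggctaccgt

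Usp8 had log2 signals of -1.03 and -1.23 in USP8ff_CD4Cre, against -0.23 and -0.40 in USP8ff, which left 56.9% of the control signal (limma adjusted p = 0.60). In pooled cells, fewer cells of a type and less RNA per cell cannot be told apart. All 11 DP markers were measured, Cd4, Cd8a, Cd8b1 and Rag1 among them, with summed linear signals of 1777 and 1801 times the 75th percentile in USP8ff_CD4Cre and 1695 and 1773 in USP8ff. Dntt and Cd8b1 were the brightest in this sum, with positive differences of 0.10 and 0.09. By gene, 8 of the 11 had negative differences (median -0.063), against 45.2% of all genes. The groups did not overlap for 5 lower and 2 higher, against 16.3% and 24.3% of all genes. Of 48 markers of 6 other cell types with a probe, 20 were measured, and their sums were 12.9 and 13.9 in USP8ff_CD4Cre and 14.9 and 14.7 in USP8ff. By gene, 14 of the 20 had negative differences (median -0.15). Among measured NK and macrophage markers Nkg7 had a difference of -2.09, Il2rb of -2.02, Ctss of -1.96, Mpeg1 of -1.09 and Prf1 of -0.86. Each of these was lower in both USP8ff_CD4Cre arrays. Il2rb was well above background on 1 of 2 USP8ff_CD4Cre arrays and was thus kept through USP8ff alone. Gzma (0.42), Tbx21 (0.15) and C1qb (0.25) were higher in both, and the groups overlapped for Cd68 (-0.12) and Lyz2 (-0.19). C1qb was well above background on 1 of 2 USP8ff arrays and was thus kept through USP8ff_CD4Cre alone. Summed NK signals were 3.94 and 5.29 in USP8ff_CD4Cre and 4.28 and 4.37 in USP8ff, a sum in which Gzma was by far the brightest. B cell Ms4a1, macrophage Csf1r and Adgre1, NK cell Ncr1, erythroid Alas2, and the stromal Foxn1 and Krt8 were not well above background on both arrays of either group. Sums of 6 measured mature single-positive markers were 101 and 112 in USP8ff_CD4Cre and 90.1 and 96.8 in USP8ff, a sum in which Klf2 was the brightest. The other 5 had negative differences, 4 of them with an unadjusted limma p under 0.05, where 3.46% of all genes were lower with such a p. Of these, Ccr7 had -1.24 ± 0.23 (SE), while Il7r, Itgae and Gimap4 were well above background on both control arrays and on neither USP8ff_CD4Cre array.

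Of the 10 BCL2 family genes, 0 passed limma's test at an adjusted p under 0.05, where 0% of all 13062 genes passed. Bmf was the 1 member with an unadjusted p under 0.05, and it was lower, where 7.43% of all genes had such a p and 3.46% were also lower. The family did not shift one way. Differences were negative for 6 and positive for 4, with a median of -0.03 beside 0.02 over all genes. The arrays of the genotypes did not overlap for 4 members (Bcl2l1, Mcl1 and Bmf lower, Bak1 higher), against 40.6% of all genes (16.3% lower and 24.3% higher). For Bcl2l1 the nearest arrays of the genotypes were at 1.926 and 1.936. The difference exceeded both gaps between arrays of a genotype for 3 (Mcl1, Bmf and Bak1), against 27.3% of all genes. Of 10 members, 4 and 3 are close to these shares.

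**Figure D1:**
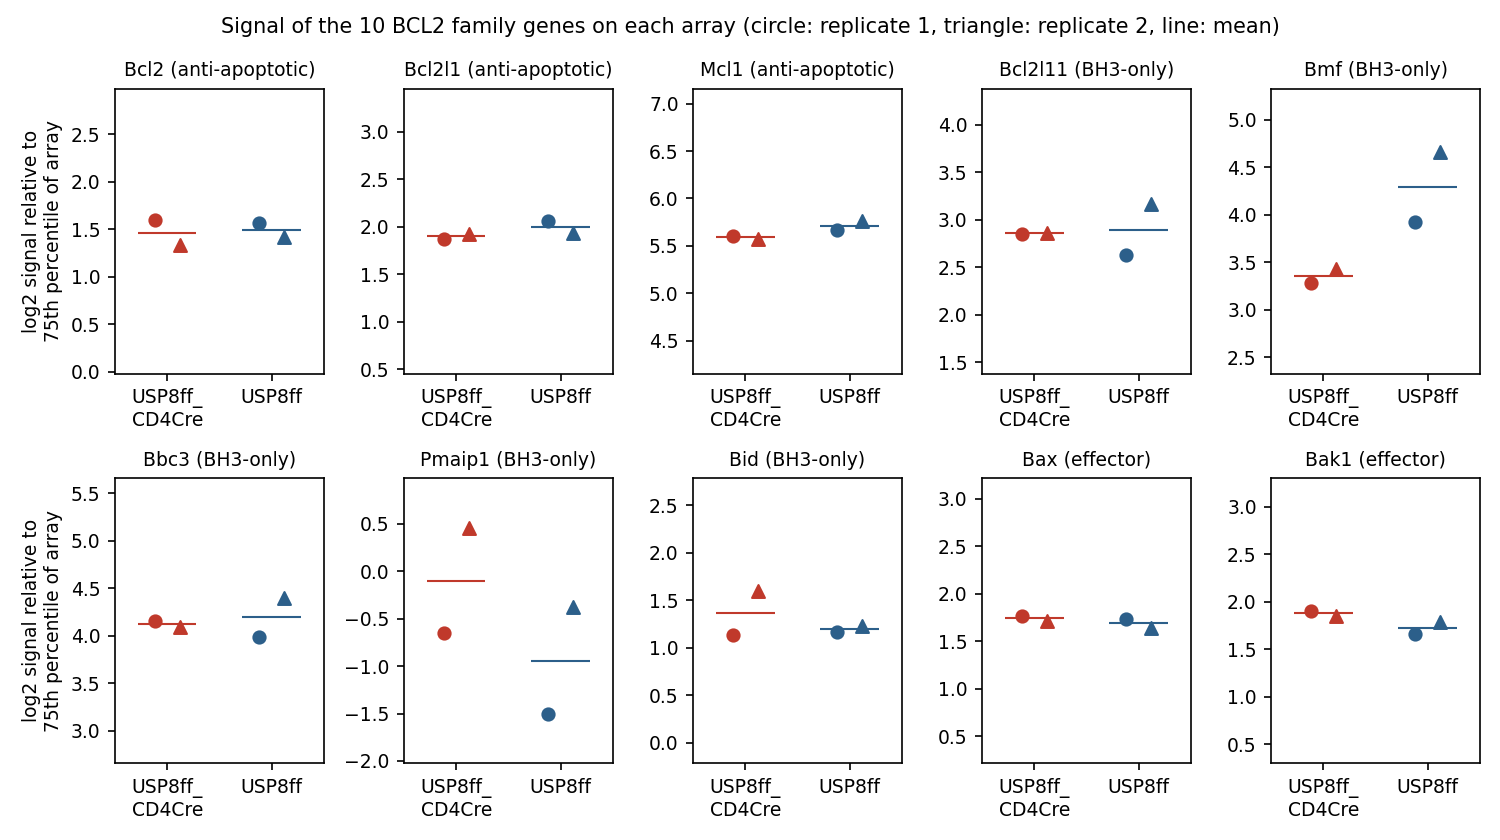
Log2 signal relative to the 75th percentile of the array for the brightest probe of each gene, with USP8ff_CD4Cre at left and USP8ff at right in each panel. Circles are replicate 1, triangles replicate 2 and lines group means, and every panel spans the same number of log2 units. Bmf lay at 3.28 and 3.43 in USP8ff_CD4Cre, below 3.92 and 4.66 in USP8ff, and both Pmaip1 groups were wide.

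Bmf, whose protein is tethered to the cytoskeleton through dynein light chains and released by stress, had the largest difference of the 10. Its brightest probe (mm9, chr2:118354519-118354578) had log2 signals of 3.28 and 3.43 in USP8ff_CD4Cre, against 3.92 and 4.66 in USP8ff. Both USP8ff_CD4Cre pools lay below both control pools, and the control pools lay 0.74 apart. Means were 3.35 ± 0.10 in USP8ff_CD4Cre and 4.29 ± 0.53 in USP8ff (SD, n = 2 each), which left 52.3% of the control signal. The log2 difference of -0.94 ± 0.26 (SE) had a 95% interval of -1.59 to -0.28 and did not pass adjustment over all genes in limma (adjusted p = 0.66). A larger absolute difference was measured for 0.582% of all genes. Bmf was lower in the same arrays as the lowered NK, macrophage and mature single-positive markers named above. Gzma, Tbx21, C1qb and Klf2 of those lists were higher there. The part of the lowered markers in the Bmf value was not tested.

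The size of the Bmf difference turned on the control pools and on the probe. Without USP8ff replicate 2 it was -0.56, and without USP8ff replicate 1 it was -1.31. The Bmf probe printed above was dim, at -3.33 and -3.03 in USP8ff_CD4Cre and -3.25 and -2.66 in USP8ff, where the lowest signals well above background were -4.49 to -3.87. Its groups overlapped, and its difference was -0.23 ± 0.23 in the fit of every probe (limma adjusted p = 0.86). With the 2 kept probes averaged, the Bmf difference was -0.58. The remaining Bmf probe (chr2:118356977-118357036) had -5.54 and -4.66 in USP8ff_CD4Cre and -3.95 and -3.49 in USP8ff. It was well above background only in USP8ff replicate 2 and was left out of the fits.

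Pmaip1 encodes NOXA, a p53 target whose protein binds MCL1 and speeds its degradation. Its single probe had -0.66 and 0.45 in USP8ff_CD4Cre, against -1.51 and -0.38 in USP8ff. The lowest array was a control and the highest a USP8ff_CD4Cre array, but the groups overlapped. Means were -0.10 ± 0.78 in USP8ff_CD4Cre and -0.94 ± 0.80 in USP8ff (SD, n = 2 each), a 1.79-fold higher signal in USP8ff_CD4Cre. The difference of 0.84 ± 0.50 (SE) had an interval of -0.45 to 2.13, and the limma adjusted p was 0.72. Leaving out 1 array moved it to 1.39 (without USP8ff_CD4Cre replicate 1), 0.29 (without USP8ff_CD4Cre replicate 2), 0.28 (without USP8ff replicate 1) or 1.40 (without USP8ff replicate 2). Replicate 2 was the higher pool in both genotypes. With the replicate number as a block the difference was 0.84 ± 0.11 (SE; limma adjusted p = 0.28). The labels do not say that a number marks a shared litter or day.

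The spread of Bmf and Pmaip1 between pools of one genotype was wide for the array. These genes were singled out for their spread beforehand, so the shares below describe it and do not test it. In USP8ff the 2 pools lay 0.74 apart for Bmf and 1.13 apart for Pmaip1, where 3.27% and 0.857% of all genes had larger gaps. The median gap over all genes was 0.15 in USP8ff. In USP8ff_CD4Cre the gap was 0.14 for Bmf, near the median of 0.13 over all genes, and 1.11 for Pmaip1, exceeded by 0.658% of genes. Bmf was thus widely spaced between the control pools and Pmaip1 in both genotypes, and the replicate 2 pool was the higher in each of these pairs.

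Bcl2l11 and Bbc3 were also uneven between the control pools. Bcl2l11 had 2.86 and 2.86 in USP8ff_CD4Cre, against 2.63 and 3.16 in USP8ff. The 2 USP8ff_CD4Cre pools thus lay 0.006 apart and inside the range of the controls, whose gap of 0.53 was exceeded by 7.55% of genes. Bbc3, which encodes the p53 target PUMA, had 4.16 and 4.09 in USP8ff_CD4Cre, again inside the 3.99 and 4.40 of USP8ff. Its control gap of 0.41 was exceeded by 13.0% of genes. Bid, whose protein caspase-8 cleaves to link death receptors to mitochondria, had the reverse pattern, with 1.14 and 1.60 in USP8ff_CD4Cre, a gap of 0.47 that 7.01% of genes exceeded, and 1.17 and 1.23 in USP8ff. For all 5 BH3-only genes USP8ff replicate 2 lay above replicate 1, as it did for 51.2% of all genes and for 2 of the 5 other members. This grouping was made after the values were seen and was not tested.

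**Figure D2:**
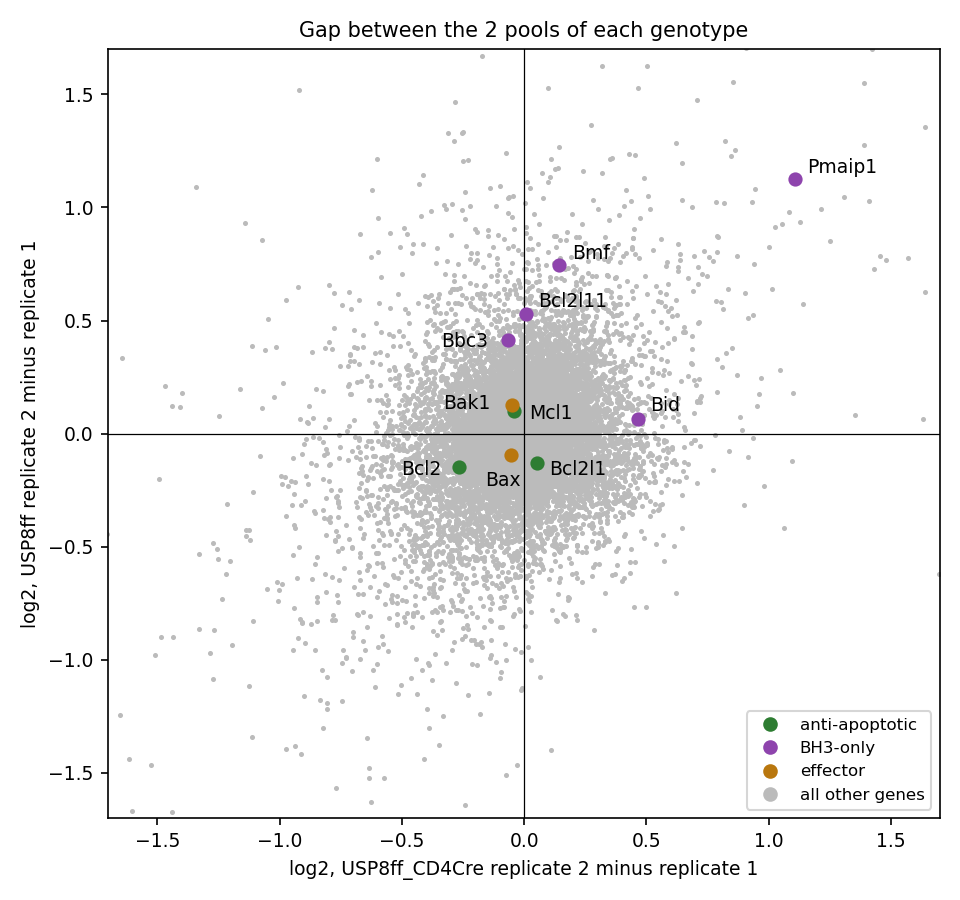
Gap between the pools of each genotype on the log2 scale, replicate 2 minus replicate 1, with USP8ff_CD4Cre on the horizontal axis and USP8ff on the vertical axis. Grey points are all other genes (45 lie outside the axes) and coloured points the 10 members. Bmf, Bcl2l11 and Bbc3 stand high above 0 on the vertical axis alone, Bid to the right, and Pmaip1 on both.

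On their brightest probes the groups overlapped for Bcl2l11, Bbc3 and Bid. Bcl2l11 had a difference of -0.04 ± 0.19 (SE) on its brightest probe, with an interval of -0.54 to 0.46. Its second probe, the one over the exon junction, had -2.69 and -2.74 in USP8ff_CD4Cre and -3.06 and -2.86 in USP8ff. There both USP8ff_CD4Cre arrays were above both controls, at a dim level, by 0.24 ± 0.12 in the fit of every probe (limma adjusted p = 0.77). The 2 Bcl2l11 probes thus had opposite signs, and neither passed. For Bbc3 the difference was -0.07 ± 0.17 (interval -0.49 to 0.35) and for Bid 0.17 ± 0.18 (interval -0.29 to 0.63), with limma adjusted p-values of 0.93 and 0.83. Without USP8ff replicate 2 the differences of Bcl2l11 and Bbc3 were 0.22 and 0.14, positive where all 4 arrays gave negative values. Without USP8ff_CD4Cre replicate 2 that of Bid was -0.062.

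The 3 survival genes among the members had small differences, all negative, where 45.2% of all genes had negative differences. Mcl1, which thymocytes need throughout their development, had 5.61 and 5.57 in USP8ff_CD4Cre, against 5.66 and 5.77 in USP8ff. Both USP8ff_CD4Cre arrays lay just below both controls. The difference was -0.13 ± 0.11 (SE), with an interval of -0.40 to 0.15 that reaches down to 75.8% and up to 111% of the control signal (limma adjusted p = 0.79). The second Mcl1 probe (chr3:95465543-95465602), 1372 bases from end to end with the first, had 3.49 and 3.28 in USP8ff_CD4Cre and 3.55 and 3.42 in USP8ff, which overlapped, and a difference of -0.10.

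Bcl2l1, the main survival gene of the DP stage, was lower in both USP8ff_CD4Cre pools on each of its 3 probes. The brightest had 1.87 and 1.93 in USP8ff_CD4Cre, against 2.07 and 1.94 in USP8ff. Its replicate 2 arrays, at 1.926 in USP8ff_CD4Cre and 1.936 in USP8ff, lay closer than the SD over their spots (0.049 and 0.061). On this probe the groups were thus barely apart. The printed probe had -0.06 and 0.10 in USP8ff_CD4Cre, against 0.15 and 0.24 in USP8ff. On the remaining probe (chr2:152655730-152655789) the values were -1.71 and -1.72 in USP8ff_CD4Cre, against -1.64 and -1.57 in USP8ff. These probes lie over 49159 bases and had differences of -0.10, -0.18 and -0.11, each with a 95% interval that held 0. The probes read the same RNA on the same arrays, so they are not 3 independent observations. For the brightest, the difference of -0.10 ± 0.11 had an interval of -0.38 to 0.18 (limma adjusted p = 0.84).

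Bcl2 itself had 1.60 and 1.33 in USP8ff_CD4Cre, against 1.56 and 1.41 in USP8ff, on the printed probe. The control pools lay between the USP8ff_CD4Cre pools, and the difference was -0.02 ± 0.14 (SE; interval -0.38 to 0.33; limma adjusted p = 0.97). Its sign turned with 1 array left out, to 0.11 without USP8ff_CD4Cre replicate 2 and to 0.05 without USP8ff replicate 1. The probe at chr1:108434793-108434852 had 0.20 and 0.28 in USP8ff_CD4Cre, below 0.47 and 0.35 in USP8ff, a difference of -0.17 ± 0.12 in the fit of every probe (limma adjusted p = 0.80). The remaining Bcl2 probe (chr1:108607310-108607369) had -1.88 and -1.95 in USP8ff_CD4Cre and -1.96 and -1.74 in USP8ff, which overlapped. All 3 Bcl2 probes had negative differences, and 1 of them had groups that did not overlap.

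The effector genes had small positive differences. Bak1 had 1.91 and 1.86 in USP8ff_CD4Cre, against 1.66 and 1.79 in USP8ff. Both USP8ff_CD4Cre arrays lay above both controls, with a difference of 0.16 ± 0.11 (SE; interval -0.12 to 0.44; limma adjusted p = 0.75). The dim Bak1 probe printed above had -2.59 and -2.69 in USP8ff_CD4Cre and -2.87 and -2.65 in USP8ff, with overlapping groups and a difference of 0.12. Bax had 1.77 and 1.72 in USP8ff_CD4Cre, against 1.74 and 1.64 in USP8ff. Its groups overlapped, and the difference was 0.05 ± 0.11 (interval -0.22 to 0.33; limma adjusted p = 0.92).

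**Figure D3:**
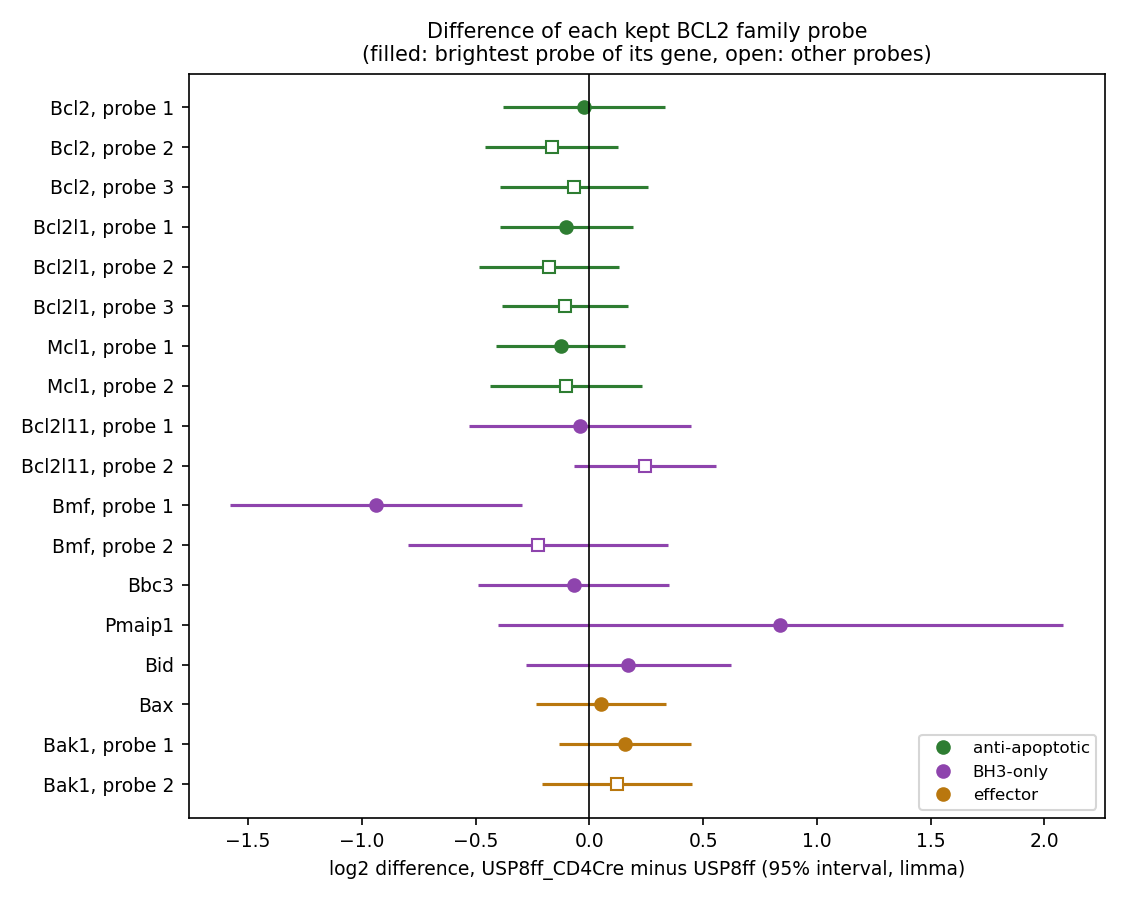
Log2 difference, USP8ff_CD4Cre minus USP8ff, of the 18 kept probes in limma's fit of every probe, with 95% intervals as lines. Filled circles mark the brightest probe of a gene and open squares the others. The interval of the brightest Bmf probe is the only one of the 18 that leaves out 0, without adjustment for the number of probes, and that of Pmaip1 is the widest.

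Bax, Bcl2l1 and Bcl2 each had a probe printed in 10 spots per array, which measures the error within an array. The SD of log2 signal over spots ran from 0.0243 to 0.0593 for Bax, from 0.0427 to 0.0608 for the brightest Bcl2l1 probe and from 0.039 to 0.117 for the Bcl2 probe at chr1:108434793-108434852. Every Bmf and Pmaip1 probe had 1 spot, so their own spot error was not measured. Over the 18 probes, the groups did not overlap for 8 (6 lower and 2 higher), against 38.7% of all kept probes (16.6% lower and 22.1% higher). The 6 include all 3 Bcl2l1 probes, which read the same RNA on the same arrays, so the count is not of independent observations. The brightest Bmf probe was the 1 of 18 with an unadjusted p under 0.05, against 6.67% of all kept probes.

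Around the BCL2 family, 5 lists held 62 measured genes out of 71, and 0 passed adjustment. They covered other family members, partners and turnover of BCL2 proteins, transcription factors of BCL2 family genes, the apoptosome with caspases, and death receptors. Of the 62, 1 had an unadjusted p under 0.05, against 7.43% of all genes. The groups did not overlap for 7 lower and 15 higher, against 16.3% and 24.3% of all genes. Differences were positive for 41 and negative for 21, with a median of 0.04 beside 0.02 over all genes. They exceeded 0.5 in size for 3 genes, against 4.2% of all genes.

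Among the other BCL2 family genes, 9 of 16 were measured (5 positive and 4 negative, median 0.03). Bcl2a1b, of the anti-apoptotic A1 group, had -1.37 and -1.72 in USP8ff_CD4Cre, against -0.73 and -0.55 in USP8ff. Both USP8ff_CD4Cre pools were below both controls, at 53.4% of the control signal, with a difference of -0.91 ± 0.16 (SE; limma adjusted p = 0.66). The markers lower beside Bmf were lower in the same arrays here, and their part was not tested. The A1 genes are near-identical copies, so the probe may read several of them. None of the 10 members is among the 78 probes in the authors' deposited table. It holds Bcl2a1c of this group, marked down with an absolute fold of 2.23 (p = 0.0406), in the authors' deposited table's own terms, which do not state the genotype on top. On the arrays that Bcl2a1c probe had a log2 difference of -1.16, lower in USP8ff_CD4Cre, but it was not well above background in any sample. Bnip3l, a mitophagy receptor gene, had 3.20 and 3.16 in USP8ff_CD4Cre, against 2.92 and 3.03 in USP8ff (limma adjusted p = 0.70).

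Partners and turnover genes had 10 positive and 3 negative differences of 13 (median 0.07). Dynll2, which encodes the dynein light chain that tethers BMF, had 2.86 and 2.98 in USP8ff_CD4Cre, against 2.65 and 2.65 in USP8ff, a difference of 0.27 ± 0.11 (SE; limma adjusted p = 0.67). Both USP8ff_CD4Cre arrays were higher, while Bmf itself was lower in both. Pim1, a kinase gene whose product can phosphorylate BAD, had 0.03 and -0.18 in USP8ff_CD4Cre, against -0.30 and -0.37 in USP8ff (limma adjusted p = 0.70).

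Transcription factors had 7 positive and 6 negative differences of 13 (median 0.01). E2f1, a cell cycle factor, had 0.75 and 0.97 in USP8ff_CD4Cre, against 0.64 and -0.0009 in USP8ff (difference 0.54 ± 0.23; limma adjusted p = 0.68). Bcl11b, a T lineage factor, had 5.93 and 5.76 in USP8ff_CD4Cre, against 6.15 and 5.95 in USP8ff (difference -0.20 ± 0.13; limma adjusted p = 0.73). Beside E2f1, all 18 proliferation genes, of mitosis (such as Plk1) and of DNA replication and nucleotide supply (such as Mcm2 and Tyms), had higher signals in both USP8ff_CD4Cre arrays, where 24.3% of all genes did. Their summed signal was 579 and 730 in USP8ff_CD4Cre and 499 and 454 in USP8ff. The array with the highest sum, USP8ff_CD4Cre replicate 2, was also the highest for Pmaip1 and Bid, and the part of cell cycling in those values was not tested.

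Downstream death genes had small differences, and none passed. Of 19 apoptosome and caspase genes, 13 had positive and 6 negative differences, between -0.14 and 0.21. Parp1, a DNA repair enzyme gene and caspase substrate, had 0.19 ± 0.13 (limma adjusted p = 0.73), and Endog, a mitochondrial nuclease gene, 0.21 ± 0.17 (limma adjusted p = 0.78). Of 8 measured death receptor genes, 6 were positive and 2 negative, with Ripk1, a kinase of the TNF receptor complex, at 0.21 ± 0.11 and the receptor gene Tnfrsf1a at -0.15 ± 0.11 (limma adjusted p-values of 0.70 and 0.77).

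**Figure D4:**
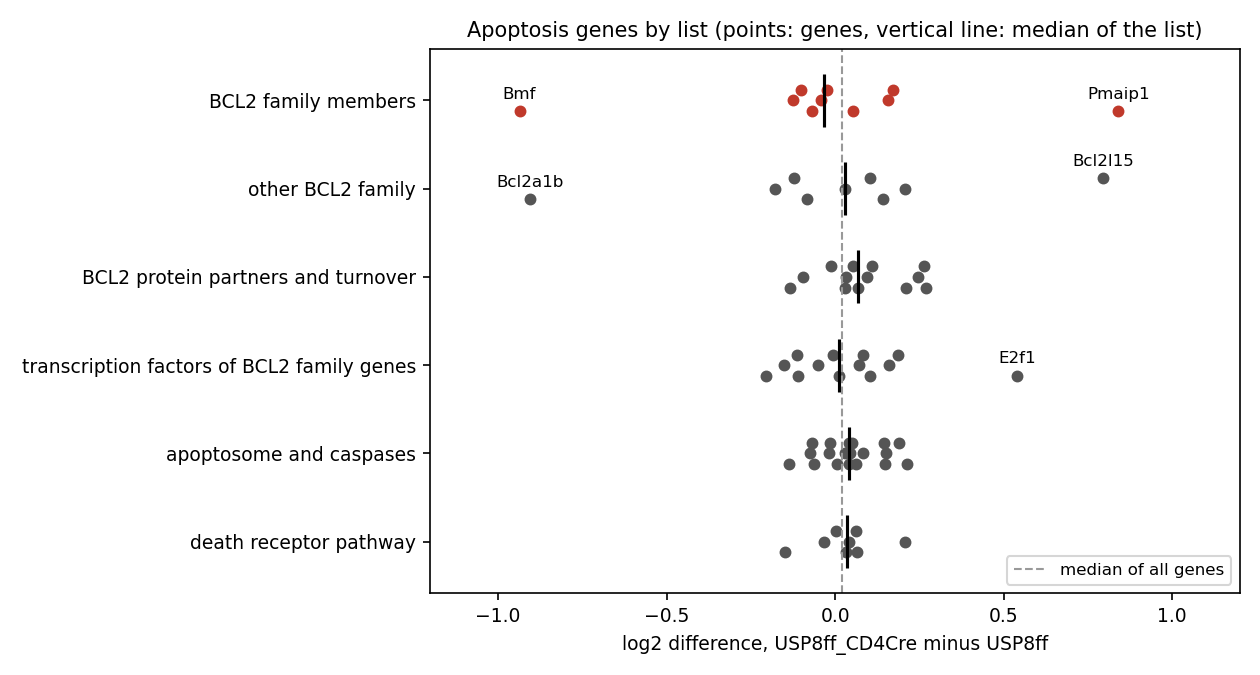
Log2 difference, USP8ff_CD4Cre minus USP8ff, of each measured gene by list, with list medians as vertical lines and the median of all genes dashed. The points lie near 0 in each list, with named exceptions over 0.5 in size: Bmf and Pmaip1 among the members, and Bcl2a1b, Bcl2l15 and E2f1 elsewhere.

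Bmf and Pmaip1 were each set against all genes by the root mean square distance between centred log2 values over the 4 arrays. Nearest to Bmf were Ifit1bl1 (distance 0.023), NAP057003-1 (0.048), a feature with no gene symbol, and Col18a1 (0.062). Of these, Ifit1bl1 and Col18a1 were well above background on 1 of 2 USP8ff_CD4Cre arrays. They were thus kept through USP8ff alone, and their low values are close to the detection limit. Nearest to Pmaip1 were Lrrc73 (0.19), Lrrc75a (0.23) and Elfn1 (0.25). Lrrc75a and Elfn1 were well above background on 1 of 2 USP8ff arrays and were thus kept through USP8ff_CD4Cre alone. The nearest other member was Bbc3 for Bmf (0.46) and Bid for Pmaip1 (0.55), so neither had a close match within the family. With 4 arrays such likeness is a description, and many genes can share a profile.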

How the data were processed

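The authors deposited 4 Agilent scanner files of spot intensity. Per the file headers, Feature Extraction 10.7.3.1 subtracted background and detrended each array, with no normalization between arrays, and positions are on mm9. The authors' deposited table gives an absolute fold and a p-value, with the test and the genotype on top unstated. A table with 4 value columns matching no label was not used.

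Log2 processed signals were set against each array's 75th percentile. Outlier spots were left out, and spots of a probe averaged. A probe was kept where both arrays of either genotype flagged it as well above background (19038), and the brightest stood for its gene (13062 genes). Symbols came from RefSeq for 26690 probes by accession, otherwise from the array design. Genotypes were compared with limma 3.58.1 (R 4.3.3; lmFit, eBayes, Benjamini-Hochberg over all genes), tested on simulated data. Other probes of a gene come from the same fit on every kept probe. With 4 arrays, precision is limited by their number. In eBayes each gene's variance among pools is moved toward a value shared by all genes. The SEs, intervals and p-values of limma rest on this moderated variance. An exact permutation test of 2 against 2 cannot go below 0.333.

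The members and lists were chosen with earlier results of these data known, so no list was tested. Named genes were the members, Usp8, the 2 genes of each apoptosis list with the smallest p, and the 3 nearest profiles of Bmf and Pmaip1. Bcl2a1c, Bcl2l15, and marker genes were named after their values were seen. Alternatives were other scaling, background, filters, probe summaries, priors and outlier handling, a replicate block and leaving out each array. Figures used matplotlib 3.10.9.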

Additional observations from a re-analysis of the deposited data

How the results depend on the processing

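Under all 14 alternatives 0 genes passed in limma, with smallest adjusted p-values between 0.085 and 0.75. Unadjusted p-values under 0.05 were found for 970 genes with all 4 arrays, 396 without USP8ff_CD4Cre replicate 2 and 1338 with the replicate number as a block. The labels do not say that a number marks a shared litter or day, and across genes the deviations of same-numbered arrays correlated at 0.32. With this replicate block the difference of Pmaip1 was 0.84 ± 0.11 (SE, adjusted p = 0.28), that of Bmf -0.94 ± 0.17 (adjusted p = 0.36), and the members' median -0.03. No call of a member changed. The median ran from -0.057 (without USP8ff_CD4Cre replicate 1) to 0.071 (without USP8ff replicate 2) with 1 array left out, and from -0.07 (quantile normalization) to -0.01 under the others. No member changed sign under the scaling, background, filter, prior or outlier alternatives. With probes averaged Bcl2l11 had 0.10 in place of -0.04. With 1 array left out the ranges were -0.16 to 0.11 for Bcl2, -0.31 to 0.22 for Bcl2l11, -0.27 to 0.14 for Bbc3, -0.062 to 0.40 for Bid, -1.31 to -0.56 for Bmf and 0.28 to 1.40 for Pmaip1. Such fits leave 1 group with a lone array, assumed to vary like the other group. Signal near background limits the dim probes of Bmf, Bcl2l11 and Bak1.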
